A study of Mus musculus with 18 samples.

Results

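Messenger RNAs for the subunits of the glutamate and GABA receptors were followed in cultured mouse brain cells and in the small extracellular vesicles (sEVs) that these cells release. The genes were chosen by symbol: 4 AMPA, 5 kainate, 7 NMDA and 2 delta receptor genes, 8 metabotropic glutamate receptor genes, 19 GABA-A and 2 GABA-B receptor genes, together 47 of the 54307 genes in the deposited table. The rule uses symbols alone and no expression value, though it was set with earlier results of these data known. The 18 libraries fell into 6 groups of 3: primary mouse neurons, primary mouse astrocytes, primary mouse microglia, and the sEVs collected from each of these cultures. The labels name brain as the tissue and mouse as the organism for all groups, and no allele, drug or other treatment sets them apart. They give no age or strain and do not say whether replicates came from separate cultures, so p-values measure only the spread between these libraries, which may be technical. All values are the authors' normalized counts, whose totals ran from 36947428 to 69276566 per library.

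Ionotropic glutamate receptors are cation channels assembled from several subunits, and AMPA and NMDA receptors carry most fast and coincidence-dependent excitation in the brain. Metabotropic glutamate and GABA-B receptors act through G proteins, while GABA-A receptors are chloride channels built mostly from alpha, beta and gamma or delta subunits. Neurons are the main site of these receptors, and astrocytes are known to carry a narrower set, among them Gria subunits and Grm5.

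The groups differed in how much of the receptor set they held. In neuron cells 39 of the 47 genes were above 0 in all 3 libraries and 29 had a mean of at least 1000. Neuron sEVs held 36 genes above 0 in every library, but only 10 with a mean of at least 1000. In astrocyte cells 31 genes were above 0 in all 3 libraries, against 19 in astrocyte sEVs. Microglia cells had 4 such genes and 27 listed at 0 throughout, and in microglia sEVs no gene was above 0 in all 3 libraries. Grm6, Gabra6, Gabre, Gabrp and Gabrr1 were too low to be tested in the fit over all libraries, which left 42 genes. Gabra6, the alpha subunit of cerebellar granule cells, and Gabrp, a subunit known mainly outside the brain, were listed at 0 in every library.

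**Figure D1:**
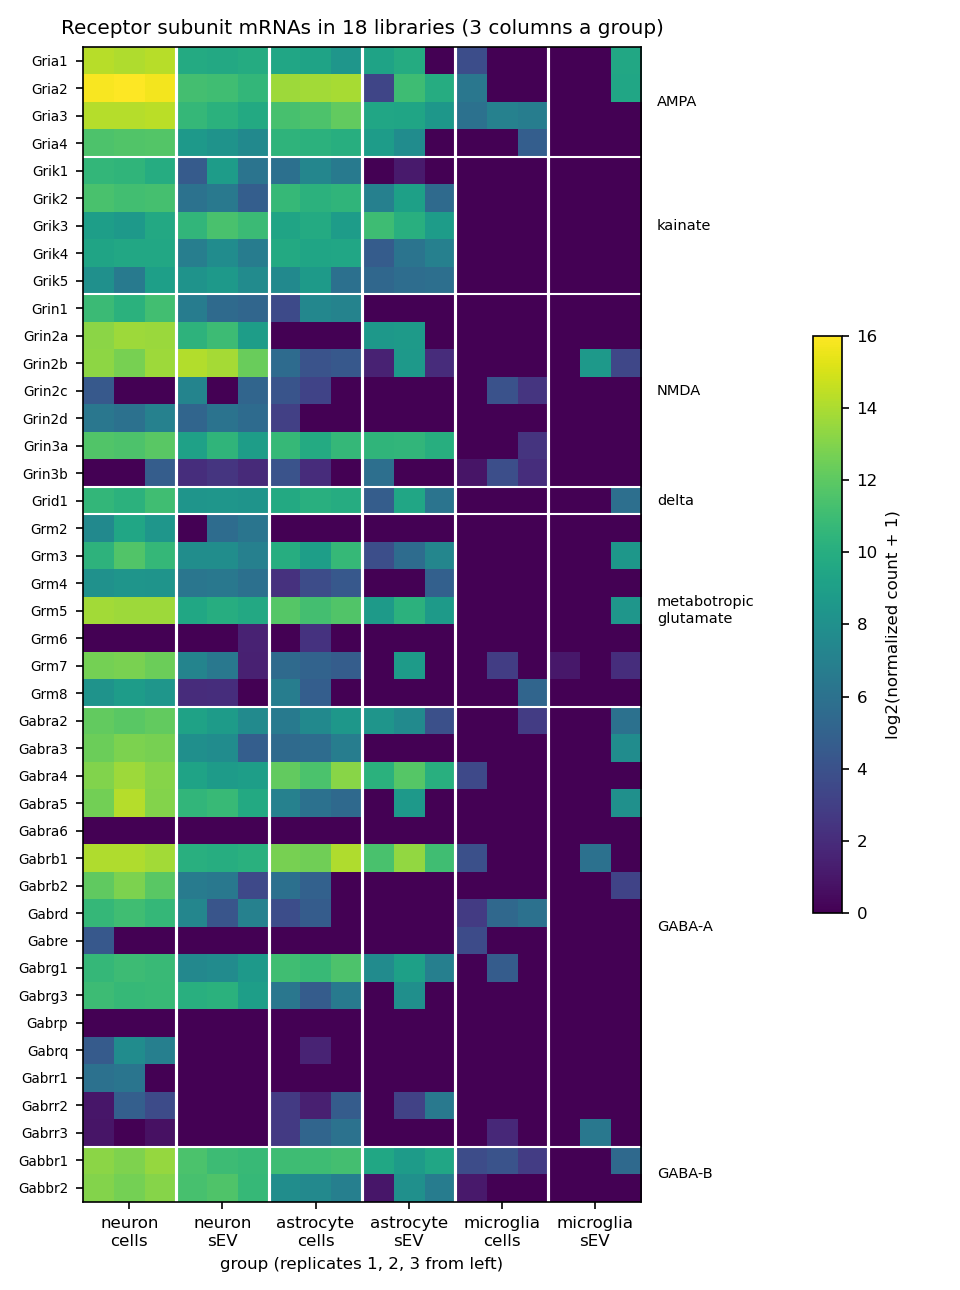
Heat map of 42 receptor genes (rows, by receptor class) in the 18 libraries (columns, 3 a group), coloured by log2(normalized count + 1). The 5 genes not reported one by one are left out, and 37 of the genes drawn were tested in the 18-library fit. Neuron cells form the brightest block, neuron sEVs are darker in nearly every row, and Grik3 and Grin2b are among the few rows where the neuron sEV block is not darker.

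Markers of each labelled cell type were abundant in its cells, and markers of other types were present too. Astrocyte markers summed to between 905410 and 1115980 in astrocyte cells and microglia markers to between 62194 and 71345 in microglia cells. Neuron markers summed to between 235669 and 283303 in neuron cells, to between 12667 and 17247 in astrocyte cells, and to between 141 and 295 in microglia cells, with none of the 8 markers at 0 in astrocyte cells. Astrocyte markers summed to between 116455 and 134427 in neuron cells and to between 99357 and 134744 in neuron sEVs, and the part of these cells in the receptor values was not tested. Oligodendrocyte-lineage markers summed to between 232812 and 414294 in astrocyte cells and to between 32355 and 94983 in neuron cells. In sEVs they summed to between 79895 and 168174 for astrocytes and between 17559 and 25099 for neurons, and their part was not tested either. Microglia markers were at or near 0 in neuron cells, where they summed to at most 58.8. In bulk cultures fewer cells of a type and less RNA per cell cannot be told apart.

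Neuron and astrocyte cells were compared first, since sEVs are drawn from these pools. Of 41 receptor genes tested, 24 were higher in neuron cells (background: 22.1% of all genes tested) and 0 were lower (background: 10.4%; also 0 at an unadjusted p under 0.05), by limma at an adjusted p under 0.05. Every neuron library lay above every astrocyte library for 31 genes (background: 31.4%). The median log2 difference was 4.47, against 0.25 over all genes tested. Several kainate and GABA-A genes were not called.

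Gria2, the AMPA subunit that limits calcium entry, had the highest length-corrected level of its class in neuron cells, at 5871 ± 884 normalized counts per kilobase (SD, n = 3). Its normalized counts were 57995, 71156 and 53512 in neuron cells and 12841, 14216 and 15095 in astrocyte cells. All neuron libraries were above all astrocyte libraries, but the difference of 2.11 ± 1.46 (log2, SE) missed the threshold (limma, adjusted p = 0.315). Per kilobase Gria2 stood at 1355 ± 110 in astrocyte cells, beside 1365 ± 805 for Gabra4, the only receptor gene with a higher mean there (SD, n = 3). Gria1, chosen after its values were seen, was 34.5-fold higher in neuron cells (log2 difference 5.17 ± 0.92, limma adjusted p = 0.00298).

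Of 7 NMDA receptor genes, 4 were higher in neuron cells (background: 22.1%). Grin2a, a glutamate-binding subunit that rises as neurons mature, had 9396, 12719 and 12224 normalized counts in neuron cells and was listed at 0 in all 3 astrocyte cell libraries. Grin2b, the glutamate-binding subunit that dominates in young neurons, was 351-fold higher in neuron than in astrocyte cells. For Grin2b the log2 difference was 8.51 ± 0.51 (limma, adjusted p = 9.66e-06). Grin1, the subunit that every NMDA receptor needs, was also higher, with a log2 difference of 4.73 ± 0.95 (limma, adjusted p = 0.00528). Grin3a, which lowers calcium entry, differed by 1.32 ± 0.65 and did not pass (limma, adjusted p = 0.16). Grin2b and Grin3a were chosen after their values were seen. Of the Grin genes, Grin2a needs care, because it shares 2225 bases at 99.91% identity with the predicted gene Gm7328, and counts could be split between them.

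Among the kainate receptor genes, Grik1 alone was called higher in neuron cells, with 1552, 1414 and 958 normalized counts against 59.7, 164 and 91.9 in astrocyte cells. Grik3 and Grik4 lay on the line of equal levels, with log2 differences of -0.23 ± 0.45 and -0.02 ± 0.34. Grid1, a delta receptor gene, was not called, and had 1540, 1220 and 2157 normalized counts in neuron cells and 847, 1088 and 940 in astrocyte cells.

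Of the metabotropic glutamate receptors, 5 of 7 tested genes were higher in neuron cells (background: 22.1%). Grm5, a Gq-coupled receptor of neurons and astrocytes, was the highest of its class per kilobase in neuron cells, at 1643 ± 78.5 (SD, n = 3). Its counts were 13939, 12972 and 12752 in neuron cells and 3493, 2400 and 3293 in astrocyte cells, a log2 difference of 2.13 ± 0.22 (limma, adjusted p = 0.000163). Grm3, a Gi-coupled receptor known in both cell types, differed by 1.01 ± 0.53 and did not pass (limma, adjusted p = 0.188). Both GABA-B genes were higher in neuron cells. Gabbr1, which binds GABA, made up 93.0% of GABA-B mRNA per kilobase in astrocyte cells and 56.8% in neuron cells. Gabbr2, its coupling partner, held the rest.

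**Figure D2:**
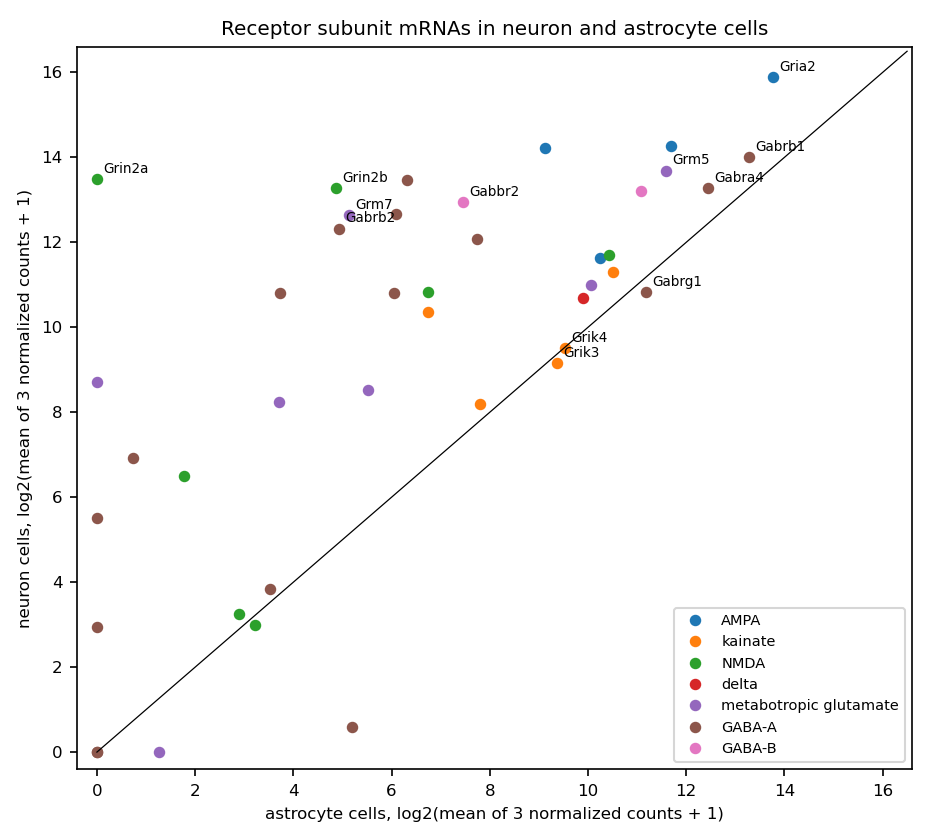
Mean of 3 libraries for the 42 receptor genes of the heat map, in astrocyte cells (x axis) and neuron cells (y axis). Both axes show log2(mean normalized count + 1), with the line of equal levels. Most points lie above the line, Grik3, Grik4 and Gabrg1 lie on or close to it, and Grin2a sits at 0 on the astrocyte axis.

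GABA-A receptor genes stand in clusters on the chromosomes, and neighbours differed in their spread over cell types. RefSeq (GRCm38.p6) places Gabrg1, Gabra2, Gabra4 and Gabrb1 together, with 1 other protein-coding gene between Gabra2 and Gabra4. The ratio of neuron to astrocyte cells was 0.781 for Gabrg1, 20.4 for Gabra2, 1.76 for Gabra4 and 1.64 for Gabrb1. Without astrocyte cell replicate 3 the ratio was 0.906 for Gabrg1, 2.63 for Gabra4 and 2.60 for Gabrb1. Outside this cluster, the ratio was 174 for the beta subunit gene Gabrb2, 143 for the alpha subunit gene Gabra5 and 27.7 for the gamma subunit gene Gabrg3. With 1 library left out it ran from 116 to 340 for Gabrb2, the highest without astrocyte cell replicate 1, and from 92.4 to 213 for Gabra5, the lowest without neuron cell replicate 2.

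Gabra4 and Gabrb1 were the GABA-A genes with the highest levels per kilobase in astrocyte cells. Gabrb1 had 6600, 5982 and 17299 normalized counts there and 17243, 17504 and 14385 in neuron cells, and its log2 difference of 0.89 ± 0.96 did not pass (limma, adjusted p = 0.532). Gabra4 had 4643, 2889 and 9285 in astrocyte cells and 7874, 12908 and 8890 in neuron cells, a log2 difference of 0.95 ± 0.91 (limma, adjusted p = 0.473). Astrocyte replicate 3 was the highest of its group for both, and the groups overlapped. These genes share 46 exonic bases on opposite strands, and the labels' library protocol marks no strand.

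**Figure D3:**
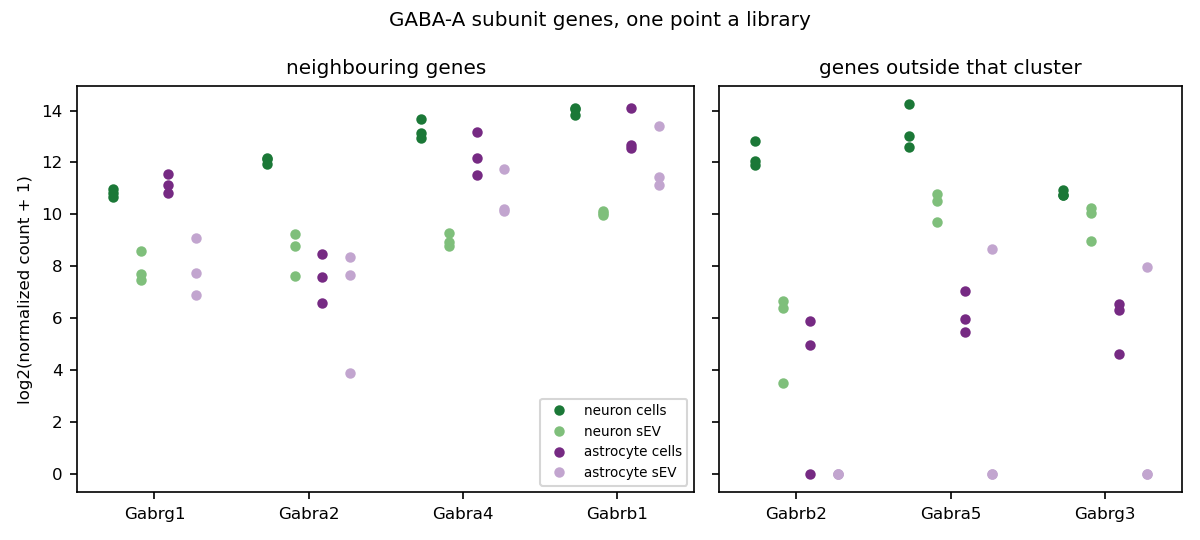
Normalized counts of GABA-A genes, as log2(value + 1), with 1 point for each library of neuron cells, neuron sEVs, astrocyte cells and astrocyte sEVs. For Gabrg1, Gabra4 and Gabrb1 in the left panel the libraries of both cell types overlap, while in the right panel neuron cells stand far above astrocyte cells for Gabrb2, Gabra5 and Gabrg3.

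The promoters of a gene from each pattern are shown to compare their letters: Gabrb2, found mainly in neuron cells, and Gabrg1, at like levels in both. They are the 250 bases before the RefSeq start on the gene's strand, on GRCm38.p6, at chr11:42420190-42420439 (plus strand) and chr5:70842618-70842867 (minus strand). Capitals mark matches, on either strand, to GGACAG, which is part of the RE1 element bound by the repressor REST, to the TATA box TATAAA and to the GC box GGGCGG.
Gabrb2: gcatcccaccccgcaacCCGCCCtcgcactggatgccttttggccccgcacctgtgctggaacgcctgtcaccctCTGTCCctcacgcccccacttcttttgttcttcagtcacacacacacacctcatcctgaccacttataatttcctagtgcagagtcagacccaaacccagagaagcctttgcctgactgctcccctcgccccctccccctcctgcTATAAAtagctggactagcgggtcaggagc
Gabrg1: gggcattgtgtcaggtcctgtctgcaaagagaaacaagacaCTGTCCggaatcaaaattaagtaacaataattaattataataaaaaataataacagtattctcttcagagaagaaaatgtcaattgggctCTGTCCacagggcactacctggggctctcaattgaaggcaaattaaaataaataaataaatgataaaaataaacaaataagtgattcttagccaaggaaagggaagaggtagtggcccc
Gabrb2 held 1 match to each motif and Gabrg1 held 2 GGACAG matches. Over 32851 promoter windows of this length, 18.67% held GGACAG, 12.37% TATAAA and 32.74% GGGCGG. RefSeq windows were found for 32 of the 47 receptor genes, and of their 39 windows 13 held GGACAG, 4 TATAAA and 18 GGGCGG.

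Neuron sEVs held far less receptor mRNA than neuron cells. The summed receptor genes made up 6325, 7153 and 6368 counts per 1000000 normalized counts in neuron cells and 822, 765 and 443 in neuron sEVs, so that no libraries overlapped. An exact permutation test of 3 libraries against 3 gave p = 0.1, the smallest it can reach (adjusted p = 0.15 over 6 tests). The summed normalized counts were 7.89-fold lower in sEVs, while the 8 neuron markers were 3.14-fold lower and the astrocyte markers 1.04-fold lower. The summed markers of excitatory neurons were 4.25-fold lower, those of inhibitory neurons 4.68-fold and those of the oligodendrocyte lineage 2.75-fold. A sum follows its most abundant genes. By gene, the median log2 difference was -1.54 for the 6 astrocyte markers and -1.44 for the 8 neuron markers. Of the astrocyte markers 2 were called lower (background: 18.9%) and 1 higher (background: 11.1%). Without Grin2b the receptor sum was 6382 ± 534 per 1000000 in neuron cells and 436 ± 82.6 in neuron sEVs (SD, n = 3).

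Gene by gene, 20 of 42 receptor genes were called lower in neuron sEVs (background: 18.9% of all genes tested) and 1, Grik3, was called higher (background: 11.1%). Every sEV library lay below every cell library for 35 genes (background: 34.2%) and above for 1 (background: 22.7%). The median log2 difference was -3.50, against -0.47 over all genes tested. Averages in neuron cells reached 50 normalized counts for 38 receptor genes. In sEVs 22 of these kept less than 0.1 of the cell mean, 11 kept between 0.1 and 0.5, and 5 kept at least 0.5 (Grik3, Grik5, Grin2b, Grin2d and Gabrg3). A fit of the neuron libraries alone called 34 of 39 genes lower (background: 33%) and the same single gene higher (background: 21.9%). It held all 20 genes of the 18-library fit. In the fit of the neuron libraries alone, Grm8 and Gabrq passed the filter only through neuron cells, so the filter fixed the direction of their calls. In the 18-library fit each gene has 1 spread for all groups, and Gria1, as an example, was at 0 in 2 microglia sEV libraries and at 768 in the third. When each of the 6 neuron libraries was left out in turn, between 13 and 15 genes were called lower. Of the 20 genes 7 lost their call at least once, among them Grin3a, Gabra3, Gabrb1 and Gabrg1. Gabrq, counted among the 20, passed the filter only through neuron cells and was tested in just 3 of these 6 fits.

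**Figure D4:**
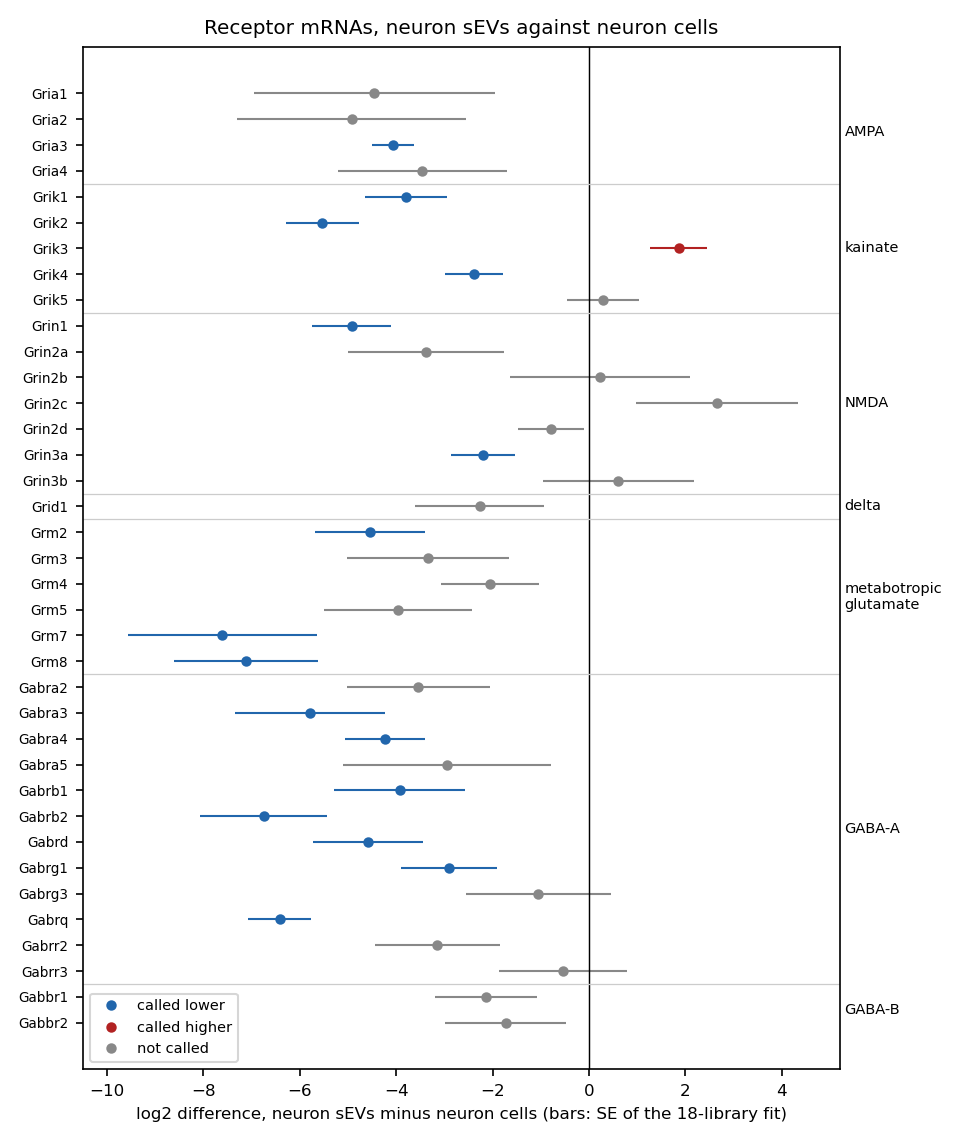
Log2 difference between neuron sEVs and neuron cells for 37 of the receptor genes tested (points; bars, SE of the 18-library limma fit), grouped by class. Blue points were called lower, grey points were not called, and Grik3, in red at 1.86, is the gene called higher.

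AMPA receptors had the largest difference of any class as a sum, from 102880 ± 6907 normalized counts in neuron cells to 4424 ± 879 in neuron sEVs (SD, n = 3), a 23.3-fold difference. Gria2 had 2371, 2212 and 1522 counts in neuron sEVs, all far below the cell values given above. Its log2 difference was -4.92 ± 2.38 in the 18-library fit (limma, adjusted p = 0.14) and -4.92 ± 0.21 in the fit of the neuron libraries alone (limma, adjusted p = 2.36e-06). Gria3 was called in both fits, and its counts went from 18957, 19093 and 20778 in cells to 1596, 1193 and 849 in sEVs. For Gria3 the log2 difference was -4.06 ± 0.44 (limma, adjusted p = 4.62e-06). Per kilobase, Gria2 made up 42.8% of AMPA receptor mRNA in neuron cells and 30.4% in sEVs, while Gria4 made up 4.26% and 8.41%.

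Kainate receptor genes split. Grik1, Grik2 and Grik4 were called lower in neuron sEVs, Grik5 was not called, and Grik3 was called higher. Grik3, which encodes a low-affinity kainate subunit, had 498, 387 and 815 normalized counts in neuron cells and 1451, 2699 and 1911 in sEVs. Every sEV library was above every cell library, a 3.56-fold ratio of means. The log2 difference was 1.86 ± 0.60 in the 18-library fit (limma, adjusted p = 0.0288) and 1.86 ± 0.35 in the neuron libraries alone (limma, adjusted p = 0.00246). The 18-library call was lost without neuron cell replicate 1 (limma, adjusted p = 0.0852) or 2 (limma, adjusted p = 0.106) and without sEV replicate 2 (limma, adjusted p = 0.103) or 3 (limma, adjusted p = 0.0661). Scaling all libraries to equal totals gave a log2 difference of 1.55 (limma, adjusted p = 0.0668).

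Grik1, the kainate gene with the highest level per kilobase in neuron cells, went from 1552, 1414 and 958 normalized counts in cells to 22.7, 454 and 70.3 in sEVs. Replicate 2 was the highest sEV library and still below every cell library. The log2 difference was -3.81 ± 0.85 (limma, adjusted p = 0.00308). Grik2, named after its values were seen, fell from 2719, 2317 and 2481 counts to 64.1, 87.6 and 26.5, a 42.2-fold difference. Grik5, a high-affinity kainate subunit, had overlapping values of 262, 94.7 and 518 in cells and 296, 381 and 211 in sEVs. As shares of kainate receptor mRNA per kilobase, Grik3 went from 5.86%, 5.18% and 10.3% in the cell libraries to 59.2%, 52.6% and 68.9% in the sEV libraries. Grik2 moved from 29.9% to 1.67% on average. Each of these share differences reached the smallest exact permutation p for 3 against 3, 0.1 (adjusted p = 0.111 over 21 shares).

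The Grik3 promoter is shown because Grik3 was the single receptor gene called higher in neuron sEVs. It spans chr4:125490446-125490695 on GRCm38.p6 (plus strand, RefSeq), and capitals mark GGGCGG on either strand.
Grik3: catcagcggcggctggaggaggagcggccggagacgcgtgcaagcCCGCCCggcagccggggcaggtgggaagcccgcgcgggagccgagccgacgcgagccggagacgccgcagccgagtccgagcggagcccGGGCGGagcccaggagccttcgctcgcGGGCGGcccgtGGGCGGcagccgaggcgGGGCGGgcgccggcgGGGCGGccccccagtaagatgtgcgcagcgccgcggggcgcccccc
This window held 6 GC boxes, no TATAAA and no GGACAG, and 82% of its bases were G or C.

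NMDA receptor mRNA was the class whose sum differed least, from 26611 ± 4180 in neuron cells to 15014 ± 7647 in sEVs (SD, n = 3), 1.77-fold, with no overlap between libraries. Grin2b carried most of what remained. Grin2b, chosen after its values were seen, had 10128, 6743 and 12897 normalized counts in neuron cells and 18393, 14680 and 5197 in neuron sEVs. The groups overlapped, with sEV replicate 3 below every cell library and sEV replicates 1 and 2 above every cell library. In the fit of the neuron libraries alone the log2 difference was 0.22 ± 0.46 (limma, adjusted p = 0.698), with a 95% interval from -0.83 to 1.28. Scaling all libraries to equal totals turned its sign, to -0.08 in the 18-library fit. Per kilobase Grin2b had the highest mean of all receptor genes in neuron sEVs, 530 ± 283, with Gabra5 next at 506 ± 177 (SD, n = 3), a gap smaller than either spread.

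The obligate partner of Grin2b moved otherwise. Grin1 fell from 1960, 1204 and 2260 normalized counts in neuron cells to 104, 45.2 and 38.4 in sEVs, a log2 difference of -4.92 ± 0.83 (limma, adjusted p = 0.000311). Grin1 shares 1307 exonic bases with the antisense gene Grin1os, whose mean was 4.61 in neuron cells and 0 in sEVs. Grin2a went from 9396, 12719 and 12224 to 1322, 2001 and 485, and its log2 difference was -3.38 ± 1.61 in the 18-library fit (limma, adjusted p = 0.134). The neuron libraries alone gave -3.38 ± 0.46 (limma, adjusted p = 0.000458). Grin3a was called lower, at -2.20 ± 0.66 (limma, adjusted p = 0.0205). Grin2c, Grin2d and Grin3b were low in both groups, with means of at most 89.9 normalized counts. Grin2d shares 643 exonic bases with the antisense gene Gm45441, whose mean was 67.2 in neuron cells and 363 in sEVs.

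Shares within the class show the same. Grin2b made up 21.4%, 15.3% and 21.9% of NMDA receptor mRNA per kilobase in neuron cells and 77.1%, 63.8% and 63.6% in neuron sEVs. Grin1 went from 20.1% to 2.07% and Grin2a from 38.1% to 11.1%, as means of 3 libraries. All 3 pairs of groups were apart, and each exact permutation p was the smallest possible, 0.1 (adjusted p = 0.111 over 21 shares).

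**Figure D5:**
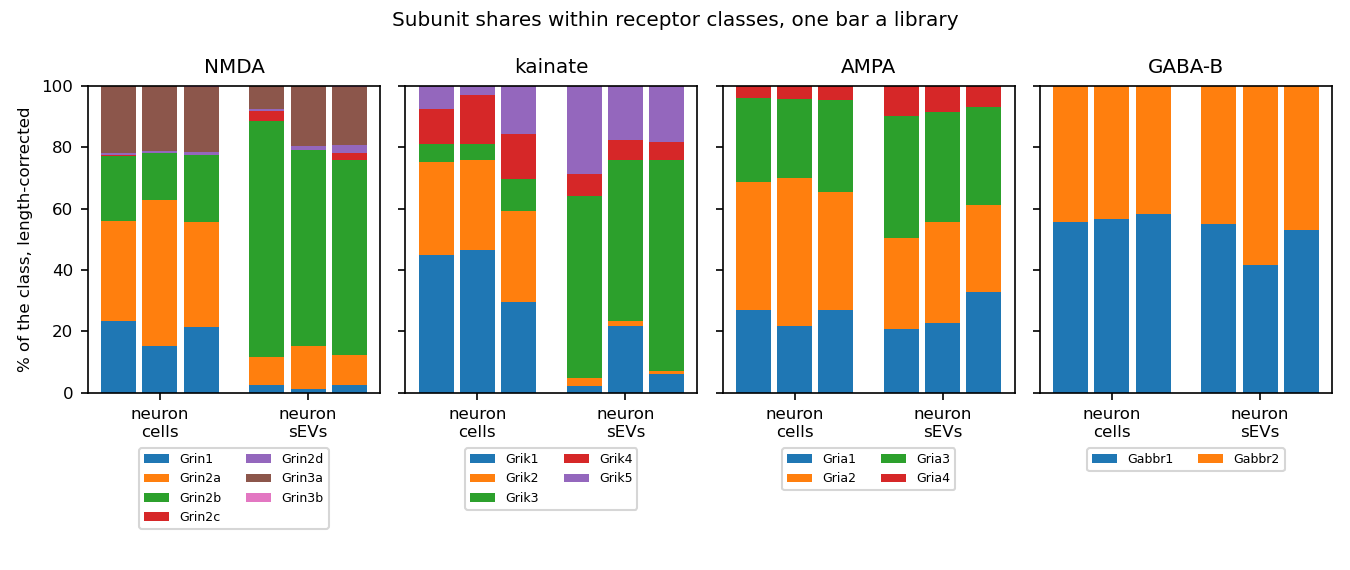
Share of each subunit in the length-corrected mRNA of its class, with 1 stacked bar for each neuron cell and neuron sEV library. Grin2b fills most of the NMDA bars and Grik3 most of the kainate bars in sEVs, whereas AMPA and GABA-B bars change less.

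No metabotropic glutamate receptor gene was called higher in neuron sEVs. The delta receptor gene Grid1 went from 1540, 1220 and 2157 normalized counts in neuron cells to 331, 341 and 316 in sEVs, with a log2 difference of -2.27 ± 1.33 that did not pass in the 18-library fit (limma, adjusted p = 0.232). Metabotropic receptor mRNA was 17.6-fold lower as a sum, and 4 of 7 tested genes were called lower (background: 18.9%). Grm5 had 736, 1008 and 818 counts in sEVs, and its log2 difference of -3.96 ± 1.54 missed the threshold (limma, adjusted p = 0.0668). In the neuron libraries alone Grm5 differed by -3.96 ± 0.17 (limma, adjusted p = 2.5e-06).

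Grm7 and Grm8, presynaptic Gi-coupled receptors, had the largest called differences of all receptor genes. Grm7 had 6427, 7175 and 5499 normalized counts in neuron cells and 147, 84.6 and 1.73 in sEVs, a log2 difference of -7.60 ± 1.96 (limma, adjusted p = 0.00798). Grm8 had 291, 464 and 344 in cells and 3.11, 3.26 and 0 in sEVs, a log2 difference of -7.12 ± 1.5 (limma, adjusted p = 0.002). Both kept their call without any one neuron library. Grm7 made up 34.6% of metabotropic receptor mRNA per kilobase in cells and 6.95% in sEVs, while Grm5 made up 37.8% and 46.0%, a difference within the spread of libraries (exact permutation test, p = 0.3).

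GABA-A receptor mRNA went from 102718 ± 23965 to 7196 ± 1484 normalized counts (SD, n = 3), 14.3-fold, and 9 of 15 tested genes were called lower (background: 18.9%). Gabrb2 fell from 4280, 7235 and 3849 to 99.7, 83.3 and 10.3, a log2 difference of -6.75 ± 1.32 (limma, adjusted p = 0.00111). Gabra3 went from 5452, 7235 and 6791 to 252, 221 and 27.1, a log2 difference of -5.79 ± 1.55 (limma, adjusted p = 0.0102). The Gabra3 call was lost without neuron sEV replicate 3 (limma, adjusted p = 0.0536). Gabrq, the theta subunit, had 22.8, 218 and 119 in cells and 0 in each sEV library, so that its fitted -6.42 ± 0.66 depends on the value of 1 added before taking logs (limma, adjusted p = 2.95e-06). It reached 10 in 3 libraries, all of neuron cells, and so passed the filter only through the group where it was high. The direction of its call was fixed by that filter.

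GABA-A genes also differed among themselves in sEVs. The ratio of neuron sEVs to neuron cells was 0.0126 for Gabrb2, and it was between 0.0524 and 0.141 in the cluster of Gabrg1, Gabra2, Gabra4 and Gabrb1. It was 0.120 for Gabra5 and 0.515 for Gabrg3. Gabrg3, chosen after its values were seen, had 1972, 1699 and 1734 normalized counts in cells and 1070, 1206 and 507 in sEVs. Within the class, Gabra5 went from 17.6% to 33.8% of length-corrected mRNA and Gabrg3 from 0.868% to 6.26%. Both shares were apart between groups (exact permutation test, p = 0.1, the smallest possible, adjusted p = 0.111 over 21 shares).

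GABA-B receptor mRNA was 3.76-fold lower in neuron sEVs. Gabbr1 had 9696, 7797 and 11145 normalized counts in cells and 2875, 1999 and 1736 in sEVs. Its log2 difference was -2.13 ± 1.05 in the 18-library fit (limma, adjusted p = 0.149) and -2.13 ± 0.23 in the neuron libraries alone (limma, adjusted p = 0.000142). Every sEV library was below every cell library for both genes, and Gabbr1 held 56.8% of the class per kilobase in cells and 49.9% in sEVs.

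Genes that work beside the receptors had median differences nearer to 0, except the glycine receptors. Of 18 auxiliary subunits and assembly factors of AMPA and kainate receptors, 4 were called lower (background: 18.9%) and 1 higher (background: 11.1%), with a median of -0.89, so that the count lower is near the background. Cpt1c, an assembly factor of AMPA receptors, and Abhd6, which limits their surface delivery, had log2 differences of -3.86 ± 0.48 and -2.22 ± 0.32 (limma, adjusted p = 1.9e-05 and 8.8e-05). Neto1, a kainate auxiliary subunit, differed by -1.75 ± 0.47 (limma, adjusted p = 0.0107). Cacng4, the single auxiliary gene called higher and named after its values were seen, had 2958 ± 57.3 normalized counts in cells and 14990 ± 701 in sEVs (SD, n = 3; log2 difference 2.34 ± 0.84, limma, adjusted p = 0.0474). The sum of the 18 genes was 1.64-fold lower in sEVs, from 61958 to 37824, against 23.3-fold for the AMPA subunits. Cacng4 alone made up 2958 of the sum in cells and 14990 of that in sEVs.

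Of 28 excitatory scaffold genes, 4 were lower (background: 18.9%) and 2 higher (background: 11.1%), with a median of -0.39, and neither count was above the background. Nsf, a vesicle fusion factor that binds AMPA subunits, and Lrrtm3, a postsynaptic adhesion protein, were lower, at -3.61 ± 0.35 and -3.78 ± 0.58. Dlgap4, a scaffold protein, was higher at 1.49 ± 0.23. Of 16 genes of the GABA and glycine postsynapse, 6 were lower (background: 18.9%) and 3 higher (background: 11.1%), with a median of -1.21. Gabarap, which binds GABA-A gamma subunits, was higher at 1.62 ± 0.13, and Clptm1, which holds GABA-A receptors in the endoplasmic reticulum, and Gphn, the scaffold gephyrin, were lower at -3.97 ± 0.56 and -2.32 ± 0.50. The 16 genes summed to 50351 in cells and 55029 in sEVs, and without Gabarap, left out after its values were seen, to 43930 and 35301.

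Glycine receptor subunits, close relatives of GABA-A subunits, were lower as well: 3 of 4 tested genes (Glra2, Glra3 and Glrb) were called lower (background: 18.9%), with a median of -4.52 and a 22.4-fold lower sum. Of 23 tested genes of transmitter synthesis and transport, 7 were lower (background: 18.9%) and 0 higher (background: 11.1%; limma, 1 higher at an unadjusted p under 0.05), with a median of -2.22. Those with the smallest p were the vesicular transporters Slc17a8 and Slc32a1 and the astrocyte glutamate transporter Slc1a3. None of the 8 neuron markers was called lower (background: 18.9%; limma, 1 lower at an unadjusted p under 0.05) or higher (background: 11.1%), and their median was -1.44. Of the markers of neuron subtypes, 2 of 4 for excitatory neurons were called lower (median -2.38) and 3 of 5 for inhibitory neurons (median -2.60; background: 18.9%). In either list 0 were higher (background: 11.1%). These lists were compared by counts and medians only.

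Astrocyte sEVs held less receptor mRNA than astrocyte cells. The receptor sum was 1203, 1135 and 1479 per 1000000 in cells and 292, 518 and 204 in sEVs (exact permutation test, p = 0.1, the smallest possible; adjusted p = 0.15 over 6 tests). The summed normalized counts were 3.22-fold lower in sEVs, and 5.03-fold without astrocyte sEV replicate 2. Astrocyte markers were 1.86-fold lower as a sum, oligodendrocyte-lineage markers 2.33-fold and neuron markers 1.62-fold, and their part in the receptor values was not tested. By gene, the median log2 differences of these lists were -2.43, -1.02 and -0.87. Of the 6 astrocyte markers 2 were called lower (background: 18.6%) and 0 higher (background: 8%). Of 42 genes, 8 were called lower (background: 18.6%) and 1 higher (background: 8%), and all sEV libraries lay below all cell libraries for 17 (background: 27.2%) and above for 0 (background: 15.3%). The count called lower is near the background. The median log2 difference was -2.38, against -0.60 over all genes tested. Without astrocyte sEV replicate 2, whose receptor sum was the highest of its group, 15 genes were called lower. Without the 6 microglia libraries 16 were, and in the astrocyte libraries alone 11 of 30 were lower (background: 19.2%) and 0 higher (background: 12.1%). In the fit of the astrocyte libraries alone, Grik1, Grin1 and Gabra3 passed the filter only through astrocyte cells, so the filter fixed the direction of their calls.

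Grik1 had 59.7, 164 and 91.9 normalized counts in astrocyte cells and 0, 1.22 and 0 in their sEVs, a log2 difference of -6.23 ± 0.85 (limma, adjusted p = 7.11e-05). Grin1 had 11.0, 166 and 141 in cells and 0 in each sEV library (limma, adjusted p = 7.15e-05). Gabra3 likewise went from 45.3, 48.7 and 108 to a listed 0 in all sEV libraries (limma, adjusted p = 0.01), a call lost under quantile normalization (limma, adjusted p = 0.0597). All 3 genes were low in astrocyte cells, in which every neuron marker was present, and the part of neurons in these values was not tested. Grik4, a high-affinity kainate subunit at 836, 692 and 701 in cells, had 24.0, 69.4 and 122 in sEVs, a log2 difference of -3.62 ± 0.60 (limma, adjusted p = 0.000397).

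The abundant astrocyte subunits behaved less uniformly. Gria2 had 9.29, 2106 and 956 normalized counts in astrocyte sEVs, all below the cell libraries but spread too widely to pass (log2 difference -5.67 ± 2.38, limma, adjusted p = 0.094). Gabrb1 had 2763, 10877 and 2215 in sEVs and Gabra4 had 1171, 3461 and 1109, and replicate 2 of each overlapped the cell libraries. Grin3a and Grik3 were chosen after their values were seen. Grin3a had 1708, 863 and 1589 in cells and 1387, 1463 and 1053 in sEVs, with a log2 difference of -0.04 ± 0.66. Grik3, at 639, 869 and 461 in cells and 2093, 1095 and 451 in sEVs, was not called (log2 difference 0.67 ± 0.60, limma, adjusted p = 0.462). Its share of kainate mRNA per kilobase ran from 14.3% to 19.4% in astrocyte cells and from 55.4% to 89.3% in their sEVs.

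Grin2a was the gene called higher in astrocyte sEVs. It was listed at 0 in all 3 cell libraries and had 367, 422 and 0 in sEVs (limma, adjusted p = 0.0158). The call rested on both non-zero libraries: without sEV replicate 1 the adjusted p was 0.0756 (limma) and without sEV replicate 2 it was 0.07 (limma). The identity with Gm7328 given above touches this value too. Of the 8 genes called lower in astrocyte sEVs, 7 (87.5%) were among the 20 called lower in neuron sEVs, of which they make up 35%: Gria3, Grik1, Grik2, Grik4, Grin1, Gabra3 and Gabrg1. Over all genes tested, 1967 were called lower in both, 53.9% of those lower in astrocyte sEVs and 53.1% of those lower in neuron sEVs. The Gabrg1 call was lost without any one of the 6 neuron libraries in neurons, and when any one of 5 of the 6 astrocyte libraries was left out in astrocytes.

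Microglia held few of these mRNAs. The receptor sum was 3.25, 4.47 and 3.78 per 1000000 in microglia cells and 0.0200, 21.2 and 54.9 in their sEVs (exact permutation test, p = 0.4). Gria3, the receptor gene with the highest mean normalized count in microglia cells, had 62.8, 129 and 108 normalized counts in cells and 0 in each sEV library. Gabrd, an extrasynaptic GABA-A subunit, had 5.81, 41.8 and 62.2 in cells and likewise 0 in each sEV library. Both were called lower (limma, adjusted p = 4.23e-08 and 0.00646), 2 of 42 genes (background: 21.2%), and 0 were called higher (background: 5.08%; 2 at an unadjusted p under 0.05). The Gabrd call was lost under quantile normalization (limma, adjusted p = 0.072) and with library weights (limma, adjusted p = 0.147). Libraries were apart for 3 genes lower (background: 24.9%) and 0 higher (background: 8.45%). In the microglia libraries alone 2 receptor genes were tested, of which 1 was lower (background: 21.6%) and 0 were higher (background: 6.71%). The gene lower was Gria3, which passed the filter of this fit only through microglia cells, so the filter fixed the direction of its call. Gria2, the third by mean, was present in 1 of 3 cell libraries, at 78.7. All 5 kainate genes were listed at 0 in every microglia library.

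What receptor mRNA microglia sEVs held came from single libraries. Replicate 3 had 768 for Gria1 and 712 for Gria2, and replicate 2 had 382 for Grin2b, while replicate 1 held 1 gene above 0. These genes were named after their values were seen. Neuron markers summed to 170, 2548 and 2182 in these libraries and oligodendrocyte-lineage markers to 29.8, 1041 and 904. The marker sums were thus also lowest in replicate 1, and their part in the receptor values was not tested.

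Between cell types, neuron cells had 39 of 41 genes called above microglia cells (background: 51.8%), with no overlap of libraries for 39 (background: 52.9%), and astrocyte cells had 31 (background: 43.6%), with 0 lower in either, also at an unadjusted p under 0.05 (backgrounds: 19.9% and 20.8%). Neuron sEVs held 12 of 35 tested genes at a higher level than astrocyte sEVs (background: 11.8%) and 0 at a lower level (background: 3.13%; 1 at an unadjusted p under 0.05). Those 12 included Grin2b, with a log2 difference of 9.40 ± 2.49 (limma, adjusted p = 0.0408), and Gabbr2, with 5.94 ± 1.66 (limma, adjusted p = 0.0495). Leaving out any one neuron sEV library removed all 12 calls, and leaving out astrocyte sEV replicate 1 left 7. Every neuron sEV library was above every astrocyte sEV library for 19 genes (background: 29.4%) and below for 2 (background: 12%). Against microglia sEVs, 29 of 35 genes were higher in neuron sEVs (background: 45.3%), with no overlap of libraries for 30 (background: 52%), and 0 were lower, also at an unadjusted p under 0.05 (background: 13.6%). No receptor gene reached 10 in all 3 microglia sEV libraries, and in microglia cells only Gria3 did. The others could pass the filter only with libraries of neurons or astrocytes. The filter thus largely fixed the direction of the counts against microglia.

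The change from cells to sEVs was itself compared between cell types. Between neurons and astrocytes the test passed for 2 of 42 genes, Grin2a and Gabrq, both with the more negative change in neurons (background: 2.47%), and for 0 the other way (background: 2.63%; 2 at an unadjusted p under 0.05). The Grin2a call was lost under 13 of 22 alternatives, 10 of them a left-out library (limma, adjusted p between 0.0543 and 0.0766). Gabrq kept its call in the 18 alternatives that tested it. It was at most 1.96 in any astrocyte library, so that its contrast is close to the neuron difference, whose direction the filter fixed. Between neurons and microglia the change was more negative in neurons for 9 genes (background: 7.82%). It was less negative for 1, Gria3 (background: 12.9%), which turned to -0.27 under quantile normalization. In fits of only the groups compared, the first pair of counts was 2 (background: 2.6%) and 0 (background: 2.73%), with Gabrq and Gabra4 called and Grin2a not (limma, adjusted p = 0.0661), and the second 14 (background: 9.57%) and 1 (background: 14.9%). Several of the 9 were listed at 0 in microglia cells and sEVs alike, so that the contrast equals the neuron difference. For Grik3, Grin2b and the other genes the difference between neurons and astrocytes did not pass, and their separate calls do not show a difference between cell types.

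Across the 42 tested genes, the neuron sEV difference and the GC content of the longest coding transcript had a Spearman rho of 0.42 and a Pearson r of 0.50, beside 0.19 and 0.21 over 19573 genes. With transcript length the members' rho was 0.19 and that of all genes was -0.03. These are descriptions over genes that share the same libraries.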

How the data were processed

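The deposited table holds normalized counts per gene for 18 libraries, as a continuous signal that the authors made with Salmon 1.8.0 and DESeq2 on GRCm39, per the submitters' processing notes. Between 2.88% and 7.91% of low values came out as whole reads within 0.001, so read counts were not recovered and no count test was run. Poly-dT priming, 15 PCR cycles and tagmentation, per the labels' protocols, do not mark strand. Taking a library's commonest non-zero value as 1 read gives 30657509 to 77761362 reads per library.

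Values were taken as log2(value + 1) and limma was run on genes that reached 10 in 3 or more of the libraries fitted (version 3.58.1, trended eBayes, two-sided, R 4.3.3), with Benjamini-Hochberg adjustment over all genes in a contrast. Cells and sEVs were compared in a fit of all 18 libraries, cell types in fits of the 9 cell or 9 sEV libraries. The fit was also tried on simulated data, whose outcome is not given here and says nothing on the calls. Shares within a class use values per kilobase of the longest coding transcript (GENCODE M21). Values of every library are given for the gene highest per kilobase of each class, the 6 (neurons) or 4 (glia) largest calls each way with a mean of at least 50, the 3 highest means in each glial cell type, and up to 3 genes per pathway list by p; other names were chosen after values were seen. Of the receptor genes, 5 are included in counts and sums but not reported here one by one. Members and lists were chosen with earlier results of these data known. Alternatives were other pseudocounts, filters, scalings, weights, blocks and left-out libraries.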

Additional observations from a re-analysis of the deposited data

Results flagged for a closer look

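The change from cells to sEVs in neurons was set against that in another cell type by the interaction test in limma, which passed for several receptor genes at an adjusted p under 0.05. For genes at or near 0 in the other cell type it restates the neuron difference and does not compare changes. Against astrocytes, the neuron change was lower by log2 -9.13 for Grin2a and -5.90 for Gabrq. Grin2a was at 0 in all astrocyte cell libraries and in 1 of their sEV libraries, and its call was lost under 13 of 22 alternatives. Gabrq was at most 1.96 in any astrocyte library and passed the filter only through neuron cells. Against microglia, the neuron change was higher by 2.53 for Gria3, which was listed at 0 in every microglia sEV library. It was lower by -3.81 for Grik1, -5.53 for Grik2, -4.92 for Grin1 and -6.42 for Gabrq, which were all listed at 0 in every microglia library, so that these values are the neuron differences. The Grik1 call was lost when any one of 11 of the 12 libraries of this contrast was left out, and the Grin1 call with library weights (limma, adjusted p = 0.0851). The neuron change was also lower by -6.77 for Grm5, -8.39 for Gabra3 and -7.82 for Gabrb2, each above 0 in 1 microglia sEV library. The Grm5 call was lost when any one of 9 of the 12 libraries was left out and in the fit of only the groups compared (limma, adjusted p = 0.0844).

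The deposited table also carries the authors' mean column for each group, and the column for microglia sEVs did not follow its replicates. In it 19 receptor genes were above 0 that were at 0 in all 3 microglia sEV replicates, and 26 exceeded the highest replicate. That column equalled the mean of the replicates for 1477 of 18481 genes with a value, whereas the columns of the other 5 groups equalled it for every gene. The mean columns were used in no comparison.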

How the results depend on the processing

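For single receptor genes 636 alternative values kept direction and side of the threshold, 120 kept direction only and 5 turned sign; of the counts 266 stayed within 1.5 times and 54 did not, and the cause was not tested. Grin2b in neuron sEVs against cells turned to -0.0792 with equal library totals, -0.00644 with library weights, -0.03 without neuron cell replicate 2 and -0.13 without neuron sEV replicate 1 (range over left-out libraries -0.13 to 0.78), and Gria3 in the neuron against microglia effect turned to -0.27 under quantile normalization. Counts called higher or lower moved as follows. For neuron sEVs against cells, higher went to 0 with equal totals and with the replicate block, and lower went to 34 with library weights and with only the groups compared. For astrocyte sEVs, higher went to 0 with only the groups compared and lower to 16 without the 6 microglia libraries, an alternative chosen after seeing the data. For microglia sEVs under quantile normalization 11 were higher and 1 lower, and 1 was lower with library weights and in the fit of only the groups compared, which tested 2 receptor genes. The neuron against astrocyte effect gave 1 lower with the filter of at least 50, 6 with quantile normalization and 1 with the replicate block. The neuron against microglia effect gave 0 higher with a pseudocount of 5, quantile normalization and the replicate block, and 18, 28 and 14 lower with a pseudocount of 5, quantile normalization and only the groups compared. Among cells, 1 gene was lower in neurons than astrocytes without a filter, and under quantile normalization 2 were lower in neurons and 3 in astrocytes than in microglia. Neuron against astrocyte sEVs gave 5 higher with the filter of at least 50, 5 higher and 1 lower with quantile normalization and 7 higher with the replicate block. Against microglia sEVs 14 were higher with quantile normalization.

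Leaving out each library in turn gave 0 to 1 higher and 13 to 15 lower in neuron sEVs, 0 to 1 higher and 6 to 15 lower in astrocyte sEVs, and 0 to 2 higher and 2 to 3 lower in microglia sEVs. It gave 0 to 1 higher and 0 to 2 lower for the neuron against astrocyte effect, and 1 to 2 higher and 5 to 10 lower for the neuron against microglia effect. Among cells it gave 20 to 24 (neurons over astrocytes), 34 to 38 (neurons over microglia) and 29 to 31 (astrocytes over microglia) higher. Among sEVs it gave 0 to 10 (neurons over astrocytes) and 20 to 32 (neurons over microglia) higher.

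With the replicate block 16 genes were lower in neuron sEVs. Deviations from the group means correlated only weakly between libraries with the same number (from -0.0396 to 0.0471). In neurons each cell library correlated best with the sEV library of its own number, which did not hold throughout in astrocytes or microglia. Such weak correlations over all genes cannot show whether the numbers pair the samples. Equal totals moved the median of all genes by -0.28, -0.17 and 0.25 in neurons, astrocytes and microglia, and quantile normalization by 0.55, 0.76 and 1.05. Of all genes called in neuron sEVs 37.1% were higher in the 18-library fit, 28.7% with equal totals and 51.2% under quantile normalization. With values already normalized, depth per library is only estimated, and values near 0 carry the least precision.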
